A study of Saccharomyces cerevisiae with 12 samples.

Results

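The core autophagy genes described here are 10 genes of *S. cerevisiae*, taken by ORF name: *ATG1* (YGL180W), *ATG2* (YNL242W), *ATG3* (YNR007C), *ATG4* (YNL223W), *ATG5* (YPL149W), *ATG7* (YHR171W), *ATG8* (YBL078C), *ATG9* (YDL149W), *ATG13* (YPR185W) and *ATG14* (YBR128C). They are 10 of the 5769 genes that had a value on the arrays, and all 10 had a value on every array. No measured value was used to choose them. Autophagy carries cytoplasm and organelles to the vacuole, the lysosome of yeast, inside vesicles with a double membrane called autophagosomes. The TOR kinase complex TORC1 holds the pathway down in rich medium by phosphorylating Atg13, and rapamycin, which inhibits TORC1, starts it without starvation. The Atg1 kinase complex then begins a membrane next to the vacuole, Atg9 vesicles, Atg2 and a lipid kinase complex that holds Atg14 extend it, and conjugation enzymes attach Atg8 to its lipids.

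The data are 12 one-color NimbleGen arrays, hybridized with Cy3-labeled cDNA. The WT strain was BY4741 (*MATa*, with *his3Δ1*, *leu2Δ0*, *met15Δ0* and *ura3Δ0*), and the mutant was the *TUP1* deletion (*tup1Δ*) taken from the yeast deletion collection. Tup1 is a corepressor that works with Cyc8 and is brought to promoters by DNA-binding repressors. Both strains were in mid-log growth in YPD, a rich medium, and received either 100 nM rapamycin or the solvent DMSO at 0.1% for 30 min at 30°C. The groups were WT in DMSO (4 arrays), WT in rapamycin (4 arrays), *tup1Δ* in DMSO (2 arrays) and *tup1Δ* in rapamycin (2 arrays). The design text says that each WT culture was divided between the treatments, and that the separate cultures of the mutant were treated likewise. Arrays of one strain with the same replicate number were therefore taken as a pair, which for *tup1Δ* is less explicit in the sources. All *tup1Δ* arrays come from a single deletion strain, and each value is an average over a culture, so a change in all cells and a larger one in some of them cannot be told apart.

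The values are log2 expression levels from Robust Multi-array Average (RMA), which gives all arrays nearly the same distribution. They ran from 7.85 to 15.52, with array medians from 11.48 to 11.52, so a shift shared by every gene leaves no trace in them. *TUP1* (YCR084C) lay between 13.66 and 14.04 on the WT arrays and between 7.95 and 8.23 on the *tup1Δ* arrays. The 3 marker genes deleted in BY4741 (*URA3*, *LEU2* and *MET17*) lay between 7.85 and 8.06 on all arrays. The 5 **a**-specific genes were between 9.75 and 14.27, and the 3 α-specific genes were between 7.98 and 8.99. The upper part of that range comes from *MF(ALPHA)2* (YGL089C) alone, at 8.49 to 8.99. *STE3* (YKL178C) reached 8.21 and *MF(ALPHA)1* (YPL187W) reached 8.03. WT arrays were alike in pairs. In DMSO, the SD of the differences between arrays across all genes was 0.110 for replicates 1 and 2 and 0.065 for replicates 3 and 4, against 0.258 to 0.287 between the pairs. In rapamycin it was 0.214 and 0.064 within the pairs and 0.243 to 0.268 between them. For the differences between strains, the values against each pair are given for the core genes that passed the test and for *ATG8*. A fit with a single WT pair leaves out the spread between the pairs, so its p-values do not measure that spread. Genes were tested in one limma model over all arrays and called at a Benjamini-Hochberg adjusted p under 0.05 over all 5769 genes.

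In WT, 8 of the 10 core genes rose in rapamycin, *ATG5* fell, and *ATG14* did not pass the test. Over all genes, 37.8% rose and 28.4% fell at the same threshold. The log2 fold changes of the 10 genes had a median of 0.82, against 0.06 over all genes, and ran from -0.38 for *ATG5* to 2.24 for *ATG8*. *ATG8*, *ATG7* and *ATG9* also reached a log2 fold change of 1, which 5.41% of all genes did among those that rose. The 8 genes that rose are those whose 4 rapamycin arrays lay above all 4 DMSO arrays. Such a separation in either direction was seen in 59.5% of all genes, and for each of the 8 the exact two-sided permutation test gave p = 0.0286, the smallest that 4 arrays against 4 allow. This test does not use the cultures, and it treats WT arrays that were alike in pairs as independent.

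**Figure D1:**
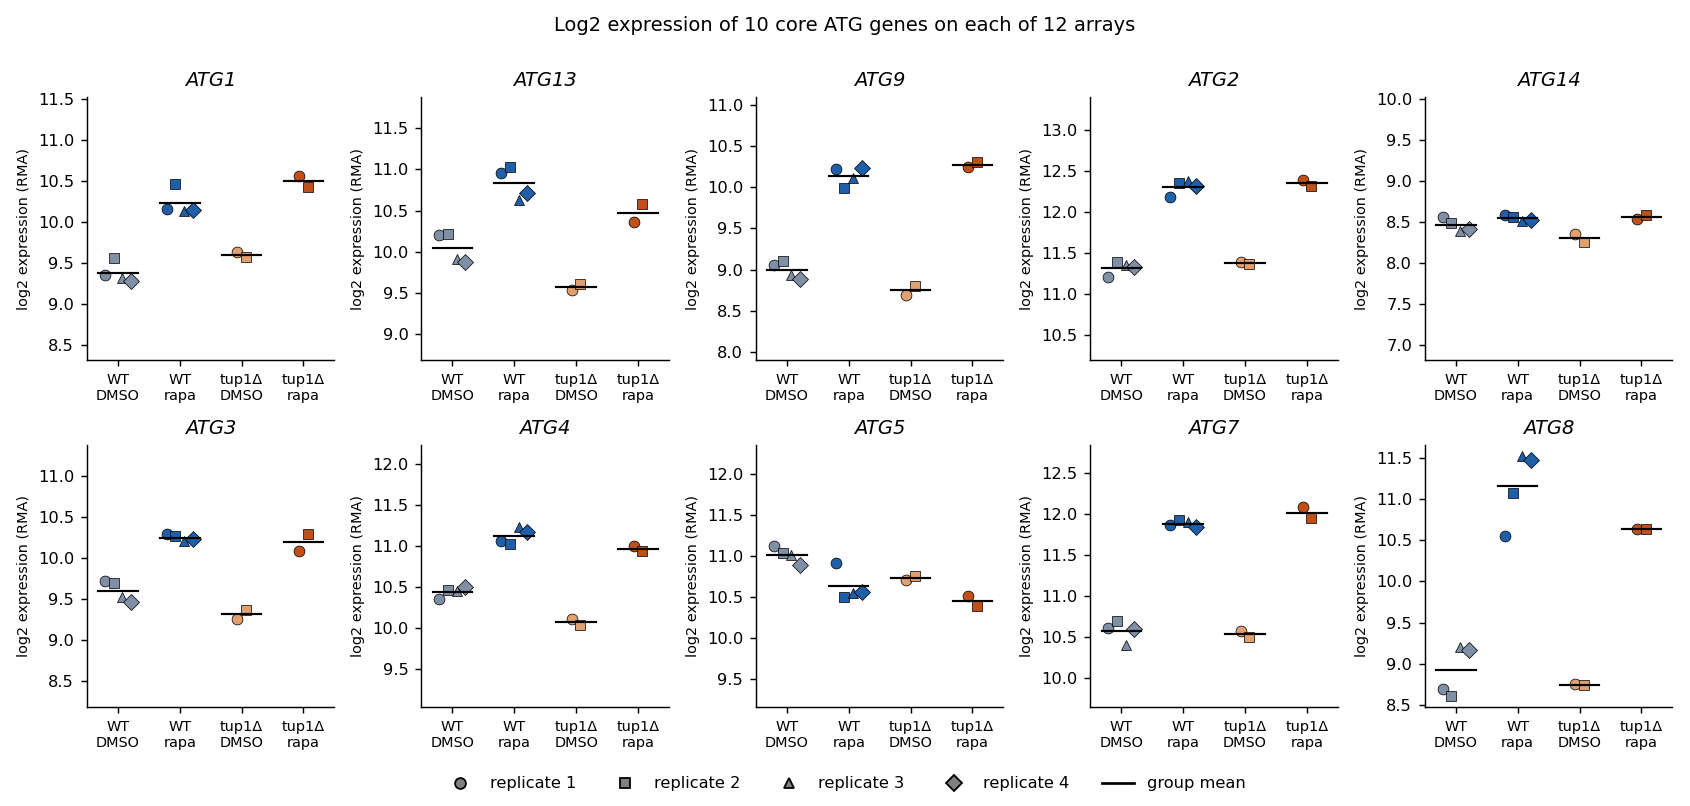
Log2 expression (RMA) of the 10 core autophagy genes on each array, by group, with marker shapes for the replicate number and a line for the group mean. Each panel spans the same number of log2 units. In rapamycin, 8 of the 10 genes lay above all arrays of the same strain in DMSO in both strains, while *ATG14* moved little and *ATG5* was lower. A separation in either direction was seen in 59.5% of all genes in WT. In *tup1Δ*, with 2 arrays against 2, it was seen in 4858 of 5769 genes and in all 10 core genes.

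Atg1 is the protein kinase at the head of the pathway, and Atg13 is the subunit through which TORC1 acts on it. *ATG1* measured 9.35, 9.56, 9.32 and 9.28 in WT replicates 1 to 4 in DMSO and 10.16, 10.47, 10.13 and 10.15 in rapamycin. Its log2 fold change was 0.85 (SE 0.09, adjusted p = 4.71e-06 from limma), which is a rise of 1.81-fold. *ATG13* measured 10.20, 10.22, 9.91 and 9.87 in DMSO and 10.96, 11.03, 10.63 and 10.71 in rapamycin. Replicates 1 and 2 were the higher ones in both treatments, so the difference within each culture varied less than the levels, from 0.72 to 0.84. The log2 fold change of *ATG13* was 0.79 (SE 0.11, adjusted p = 7.30e-05 from limma).

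Atg9 is the transmembrane protein of the vesicles that seed the new membrane, and Atg2 is a lipid transfer protein at its edge. *ATG9* measured 9.06, 9.10, 8.93 and 8.88 in DMSO and 10.23, 10.00, 10.12 and 10.23 in rapamycin. It rose in each culture by 0.90 to 1.35, and its log2 fold change of 1.15 (SE 0.07, adjusted p = 5.35e-08 from limma) was the 232nd largest of all genes. *ATG2* measured 11.20, 11.39, 11.35 and 11.33 in DMSO and 12.18, 12.35, 12.37 and 12.31 in rapamycin. Its differences within cultures lay between 0.96 and 1.02, the narrowest range among the 8 genes that rose, with a log2 fold change of 0.99 (SE 0.06, adjusted p = 4.42e-08 from limma).

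Atg14 directs the lipid kinase Vps34 to the site where autophagosomes form. *ATG14* measured 8.56, 8.48, 8.39 and 8.41 in DMSO and 8.58, 8.56, 8.51 and 8.52 in rapamycin, and the groups overlapped. Its log2 fold change was 0.08 (95% interval from -0.02 to 0.19, adjusted p = 0.142 from limma). All its values lay near the low end of the scale, where RMA understates changes. It passed the test without the DMSO array of replicate 1, at a log2 fold change of 0.12 (adjusted p = 0.0456 from limma).

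Atg8 is a ubiquitin-like protein that is attached to phosphatidylethanolamine in the growing membrane and binds cargo receptors there. *ATG8* measured 8.69, 8.60, 9.21 and 9.17 in DMSO and 10.55, 11.07, 11.53 and 11.48 in rapamycin. It rose in all 4 cultures, by 1.86 to 2.47, and its log2 fold change of 2.24 (SE 0.21, 95% interval from 1.78 to 2.70, adjusted p = 2.50e-06 from limma) was a rise of 4.72-fold. It was the 44th largest rise of all genes. In DMSO, replicates 1 and 2 lay within the range of the α-specific genes, 7.98 to 8.99. RMA understates changes there, so the size of the rise is uncertain. The WT pairs differed in level, with means of 8.65 for replicates 1 and 2 and 9.19 for replicates 3 and 4 in DMSO, and of 10.81 and 11.50 in rapamycin.

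The next genes encode the enzymes that process and attach Atg8. Atg4 is the protease that trims Atg8 and later releases it from membranes, Atg7 is the activating (E1) enzyme shared by Atg8 and Atg12, and Atg3 is the conjugating (E2) enzyme of Atg8. *ATG7* measured 10.61, 10.70, 10.40 and 10.59 in DMSO and 11.86, 11.93, 11.90 and 11.84 in rapamycin. Its log2 fold change of 1.31 (SE 0.06, adjusted p = 1.24e-08 from limma) was the second largest of the core genes, a rise of 2.47-fold. *ATG4* measured 10.35, 10.46, 10.45 and 10.50 in DMSO and 11.06, 11.02, 11.23 and 11.17 in rapamycin, with a log2 fold change of 0.67 (SE 0.06, adjusted p = 1.00e-06 from limma). *ATG3* measured 9.72, 9.70, 9.52 and 9.47 in DMSO and 10.29, 10.27, 10.21 and 10.23 in rapamycin, with a log2 fold change of 0.65 (SE 0.07, adjusted p = 8.51e-06 from limma). *ATG3* and *ATG4* rose least among the 8 genes, and the 4 cultures all showed the rise.

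*ATG5* was the core gene that fell. Atg5 is joined covalently to Atg12, and the conjugate helps Atg3 to place Atg8 on the membrane. *ATG5* measured 11.13, 11.04, 11.01 and 10.89 in DMSO and 10.92, 10.50, 10.55 and 10.56 in rapamycin. It was lower in rapamycin within every culture, by between 0.21 and 0.54, but replicate 1 in rapamycin lay above replicate 4 in DMSO. Its log2 fold change was -0.38 (SE 0.09, adjusted p = 0.00270 from limma), and the exact two-sided permutation p over the arrays, which does not use the cultures, was 0.0571.

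In *tup1Δ*, 9 of the 10 core genes rose in rapamycin and 0 fell at an adjusted p under 0.05, where 29.6% of all genes rose and 23.5% fell. At an unadjusted p under 0.05, 9 rose and 1 fell, against 32.3% and 25.6% of all genes. The median log2 fold change of the 10 genes was 0.90, against 0.03 over all genes. *ATG8*, *ATG9* and *ATG7* again reached a log2 fold change of 1, as 5.34% of all genes did. With 2 arrays against 2, the smallest exact permutation p is 0.333, so these calls rest on limma's spread over all 4 groups.

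*ATG8* measured 8.75 and 8.74 in *tup1Δ* in DMSO and 10.64 on both arrays in rapamycin. Its log2 fold change of 1.90 (SE 0.29, adjusted p = 0.000255 from limma) was a rise of 3.73-fold. *ATG9* measured 8.69 and 8.80 in DMSO and 10.25 and 10.30 in rapamycin, with a log2 fold change of 1.53 (SE 0.10, adjusted p = 2.11e-07 from limma). *ATG7* measured 10.57 and 10.50 in DMSO and 12.09 and 11.94 in rapamycin, with a log2 fold change of 1.48 (SE 0.09, adjusted p = 1.82e-07 from limma). These are again the ubiquitin-like protein, the vesicle protein and the E1 enzyme of the pathway. In DMSO, *ATG8* and *ATG9* lay within the range of the α-specific genes, where RMA understates changes.

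*ATG1* measured 9.63 and 9.57 in *tup1Δ* in DMSO and 10.56 and 10.43 in rapamycin. *ATG13* measured 9.53 and 9.60 in DMSO and 10.36 and 10.58 in rapamycin. For both genes of the kinase complex, the arrays in rapamycin lay above those in DMSO by more than the distance between arrays of one group. *ATG2* went from 11.39 and 11.37 to 12.39 and 12.32, *ATG4* from 10.11 and 10.04 to 10.99 and 10.93, and *ATG3* from 9.26 and 9.37 to 10.08 and 10.30. *ATG2*, *ATG13*, *ATG1*, *ATG4* and *ATG3* followed closely on each other, with log2 fold changes of 0.98, 0.90, 0.89, 0.89 and 0.87. Their standard errors were between 0.08 and 0.16, so their order is not resolved.

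*ATG14* and *ATG5* were the genes with the weakest support in *tup1Δ*. *ATG14* measured 8.35 and 8.26 in DMSO and 8.54 and 8.58 in rapamycin, a log2 fold change of 0.25 (SE 0.07, adjusted p = 0.00875 from limma). The call was lost without replicate 2 in DMSO (adjusted p = 0.0777 from limma) and without replicate 2 in rapamycin (adjusted p = 0.0543 from limma). *ATG5* measured 10.71 and 10.76 in DMSO and 10.51 and 10.39 in rapamycin. It was lower in rapamycin in both replicates, with a log2 fold change of -0.28 (SE 0.13), but was not called (adjusted p = 0.0806 from limma). With the replicate number as a block it was called (adjusted p = 0.0240 from limma).

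**Figure D2:**
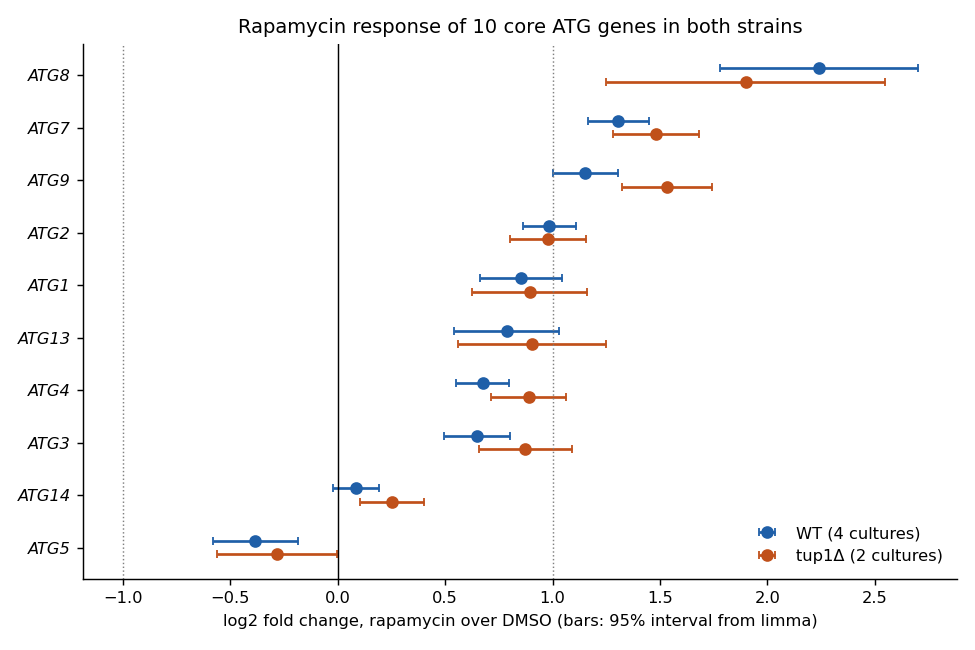
Log2 fold change of each core autophagy gene in rapamycin over DMSO in WT (4 replicates) and *tup1Δ* (2 replicates), with 95% intervals from limma. Dotted lines mark a log2 fold change of 1 in either direction. *ATG8* rose most in both strains, at 2.24 and 1.90, and *ATG5* was the gene below 0 in both.

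The strains were compared directly through the difference between their rapamycin responses (*tup1Δ* minus WT). None of the 10 core genes was called in either direction by limma, while 3.48% of all genes had a larger and 2.29% a smaller value in *tup1Δ*. At an unadjusted p under 0.05, 2 of the 10 were higher and 0 lower, where 10.7% and 8.96% of all genes were. The differences ran from -0.34 for *ATG8* to 0.38 for *ATG9*, with a median of 0.14, against 0.00 over all genes. For *ATG9* the 95% interval was from 0.12 to 0.64 (adjusted p = 0.0961 from limma). For *ATG9*, both *tup1Δ* replicates rose by more than all 4 WT cultures, with a rise of up to 1.56 and of at least 1.5, against 0.90 to 1.35. This was not particular to *ATG9*, as the same was seen for *ATG3*, *ATG4* and *ATG14*. For the other core genes the ranges of the strains overlapped. Such a separation was not counted over all genes, and it rests on the pairing of the *tup1Δ* arrays, which is less explicit in the sources. For *ATG4* the interval was from 0.00 to 0.43 (adjusted p = 0.254 from limma), and for *ATG2* it was from -0.23 to 0.21. The interval of *ATG8* was the widest, from -1.14 to 0.45. With either WT pair alone, *ATG9* was called in the same direction, while *ATG8* was called with one pair only. These fits leave out the spread between the WT pairs, so their p-values do not measure it. With WT replicates 1 and 2 as the WT arrays, the difference was 0.50 for *ATG9* (adjusted p = 0.0442 from limma). With replicates 3 and 4, it was 0.26 for *ATG9* (adjusted p = 0.0331 from limma) and -0.42 for *ATG8* (adjusted p = 7.88e-04 from limma).

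In DMSO, 4 of the core genes were lower in *tup1Δ* than in WT and 0 were higher, where 27.3% of all genes were lower and 15.3% higher. At an unadjusted p under 0.05, 6 were lower and 0 higher, where 32.2% and 17.6% of all genes were. The median log2 fold change of the 10 genes was -0.21, against -0.08 over all genes, and 0 of them reached a change of 1. *ATG13* was the lowest, at 9.53 and 9.60 in *tup1Δ* against 9.87 to 10.22 in WT, a log2 fold change of -0.48 (SE 0.14, adjusted p = 0.0149 from limma). Against WT replicates 1 and 2 this difference was -0.64, and against replicates 3 and 4 it was -0.32. *ATG4* measured 10.11 and 10.04 in *tup1Δ* against 10.35 to 10.50 in WT, with a log2 fold change of -0.37 (SE 0.07, adjusted p = 0.00146 from limma). The groups did not overlap for either gene, and the exact two-sided permutation p was 0.0667 for both, the smallest that 4 arrays against 2 allow. Such a separation in either direction was seen in 3638 of 5769 genes and in 7 of the 10 core genes. *ATG3* (-0.29, adjusted p = 0.0198) and *ATG9* (-0.24, adjusted p = 0.0349) were also lower. Against WT replicates 1 and 2 and against replicates 3 and 4, the differences were -0.40 and -0.18 for *ATG3*, -0.33 and -0.16 for *ATG9*, and -0.33 and -0.40 for *ATG4*. Of these 4 genes, 1 was called without either one of the *tup1Δ* arrays. *ATG4* kept its call under all 15 alternatives that set no fold threshold, with adjusted p-values up to 0.0251.

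The other 6 core genes did not pass the test in DMSO. *ATG1* had a log2 fold change of 0.23 (adjusted p = 0.109 from limma), at 9.63 and 9.57 in *tup1Δ* against 9.28 to 9.56 in WT. Without replicate 2 of WT in DMSO it was 0.29 and was called (adjusted p = 0.0409 from limma). *ATG5* had -0.28 (adjusted p = 0.0604) and *ATG14* -0.15 (adjusted p = 0.0558). *ATG2* and *ATG7*, at 0.06 and -0.04, had 95% intervals from -0.09 to 0.21 and from -0.22 to 0.13. *ATG8* had -0.18 with an interval from -0.74 to 0.39. Its difference was 0.09 against WT replicates 1 and 2 and -0.45 against replicates 3 and 4, where it was called (adjusted p = 1.25e-05 from limma), so direction and call differed between the WT pairs. The p-value of that fit does not measure the spread between the pairs.

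In rapamycin, 1 core gene was lower in *tup1Δ* than in WT and 0 were higher, where 27.5% of all genes were lower and 16.2% higher. At an unadjusted p under 0.05, 2 were lower and 1 higher, where 33.8% and 18.8% of all genes were. The median over the 10 genes was -0.02, against -0.09 over all genes. The gene that passed was *ATG13*, with 10.36 and 10.58 in *tup1Δ* against 10.63 to 11.03 in WT. Its log2 fold change of -0.37 (SE 0.14) was just inside the threshold (adjusted p = 0.0491 from limma), and was -0.53 against WT replicates 1 and 2 and -0.20 against replicates 3 and 4. The call was lost without any one of WT replicates 1 and 2 and *tup1Δ* replicates 1 and 2, with adjusted p-values from 0.0699 to 0.316. *ATG8* had the largest difference in size, -0.52 (SE 0.26, adjusted p = 0.122 from limma), and was -0.17 against WT replicates 1 and 2 and -0.86 against replicates 3 and 4, where it was called (adjusted p = 8.49e-08 from limma). That last fit leaves out the spread between the WT pairs, and its p-value does not measure it. Without WT replicate 1 in rapamycin, the difference of *ATG8* was -0.72 and was called (adjusted p = 0.0135 from limma). *ATG1* had 0.27 (adjusted p = 0.0612 from limma), and without WT replicate 2 it had 0.35 and was called (adjusted p = 0.00744 from limma). The comparisons of the strains and of the treatments share arrays, so their values are not independent of each other.

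**Figure D3:**
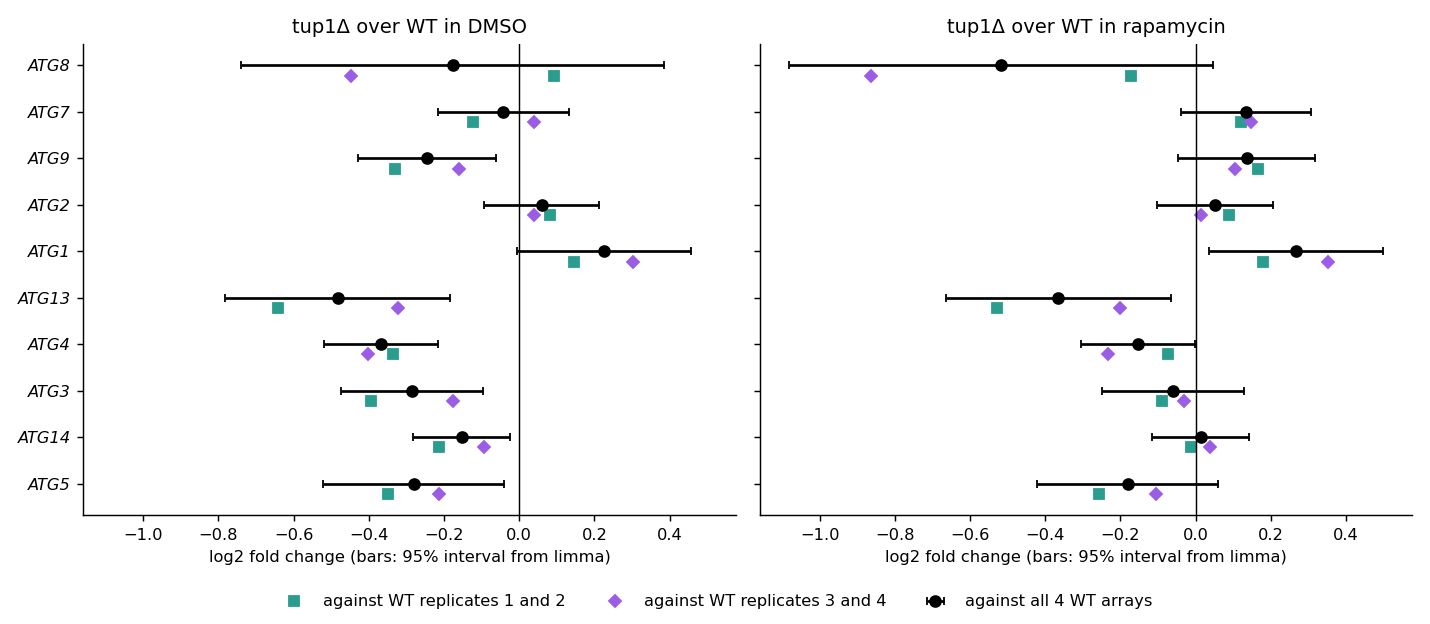
Log2 fold change of each core autophagy gene in *tup1Δ* over WT in DMSO (left) and in rapamycin (right). Black circles with 95% intervals from limma use all 4 WT arrays, squares use WT replicates 1 and 2, and diamonds use WT replicates 3 and 4. *ATG8* in DMSO moves from 0.09 to -0.45 with the WT pair, while *ATG13* stays below 0 with both.

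Other genes of the pathway were taken from lists ordered by role, with 29 genes in all. In WT, 22 of the 29 rose in rapamycin, 1 fell and 6 did not pass the test, with a median log2 fold change of 0.67, where 37.8% of all genes rose and 28.4% fell. Of the 22, 9 reached a log2 fold change of 1, as 5.41% of all genes did. In *tup1Δ*, 19 rose and 1 fell, with a median of 0.59, where 29.6% of all genes rose and 23.5% fell. Among 6 further genes of initiation and of Atg9 vesicles, 5 rose and 1 fell in WT. Atg17, Atg29 and Atg31 form the scaffold that binds Atg1 and Atg13, and their genes *ATG29* (YPL166W), *ATG31* (YDR022C) and *ATG17* (YLR423C) had log2 fold changes of 1.54, 1.02 and 0.67. *ATG27* (YJL178C), for a membrane protein that helps Atg9 to traffic, fell by 0.24 (adjusted p = 0.0014 from limma).

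Among 8 further genes of the lipid kinase and of proteins that bind its product, 5 rose and 3 did not pass the test. The largest rises were those of *ATG38* (YLR211C), for a subunit of the Atg14 complex, with 0.84, *ATG20* (YDL113C), for a sorting nexin, with 0.72, and its partner *SNX4* (YJL036W), with 0.54. For *ATG38* the WT groups overlapped (SE 0.19), and its WT values in DMSO, 8.30 to 8.71, lay near the low end of the scale. It was not called in *tup1Δ*, at 0.30 (adjusted p = 0.373 from limma). In WT, the other conjugation genes moved least, and 1 of 3 rose. This was *ATG12* (YBR217W), for the ubiquitin-like partner of Atg5, with 0.23 (adjusted p = 0.017 from limma). It kept its call under 12 of 17 alternatives. The 2 that did not pass the test measured between 7.98 and 8.15 on all arrays. This is near the low end of the scale, where RMA understates changes, so their small changes say little.

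Among 7 genes of cargo receptors and related proteins, 6 rose in WT, and 4 of them reached a log2 fold change of 1. The largest rises were those of *ATG34* (YOL083W), with 1.92, *ATG33* (YLR356W), of mitophagy, with 1.53, and *ATG19* (YOL082W), with 1.32. Atg34 and Atg19 are receptors of vacuolar enzymes. Their genes are related in sequence, so probes could share signal and their separate values are uncertain. All 5 genes of vacuolar breakdown and other roles rose, led by *ATG41* (YPL250C), for a protein that binds Atg9, with 2.24, *ATG42* (YBR139W), for a vacuolar carboxypeptidase, with 1.52, and *ATG15* (YCR068W), for the vacuolar lipase that opens autophagic bodies, with 1.19.

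**Figure D4:**
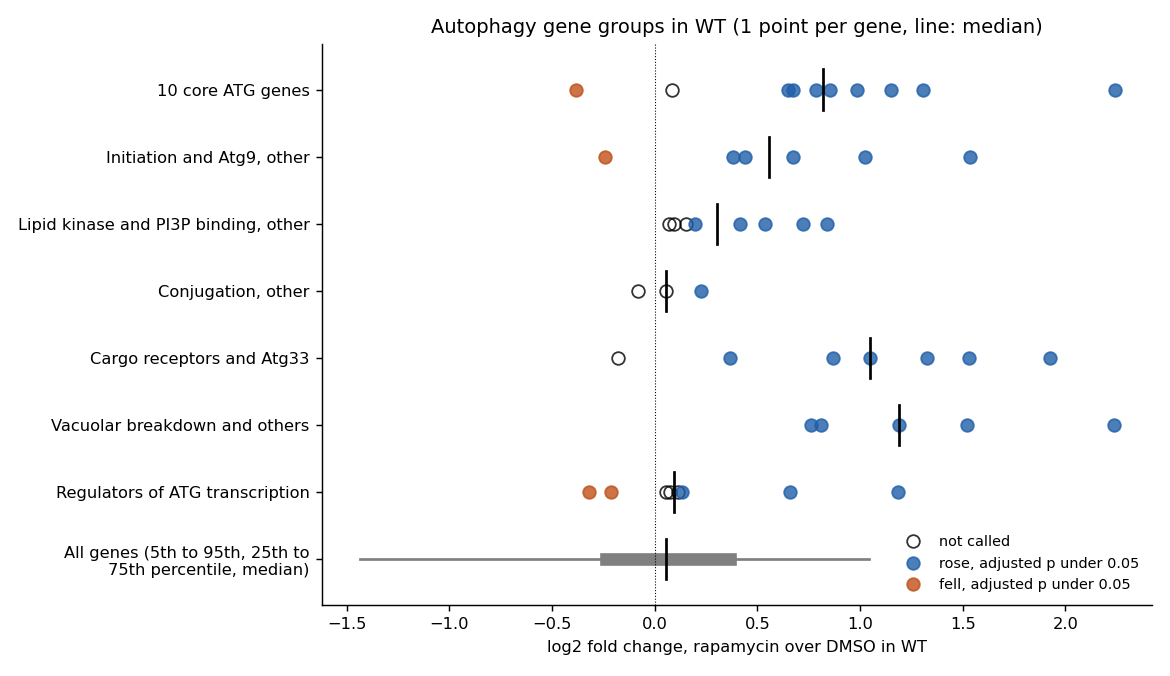
Log2 fold change in rapamycin over DMSO in WT for the 10 core autophagy genes, the other autophagy genes by role and the listed regulators, 1 point per gene, colored by the limma call, with a line at the median of each group. The bottom row gives the percentiles over all genes. The core genes have a median of 0.82, all genes one of 0.06.

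In 3 of the 29 genes the rapamycin response differed between the strains. It was larger in *tup1Δ* for 1 and smaller for 2, where 3.48% of all genes had a larger and 2.29% a smaller one. *ATG39* (YLR312C), for a receptor of autophagy of the nucleus, measured between 8.19 and 8.25 in WT in DMSO and between 8.53 and 8.63 in rapamycin. In *tup1Δ* it measured 9.18 and 9.27 in DMSO and 10.35 and 10.32 in rapamycin, and the groups did not overlap. The WT values in DMSO lay within the range of the α-specific genes, near the low end of the scale, where RMA understates changes, so its values in WT are a limit. It rose by 0.37 in WT and 1.11 in *tup1Δ*, a difference of 0.74 (adjusted p = 9.6e-05 from limma). *ATG42* and *ATG22* (YCL038C), for a vacuolar permease of amino acids, rose less in *tup1Δ*. *ATG42* had 0.68 there, a difference of -0.84 (adjusted p = 0.0040), and *ATG22* had 0.23 against 0.81 in WT, a difference of -0.58 (adjusted p = 0.0062). All 3 genes were higher in *tup1Δ* than in WT in DMSO, by 1.02, 0.90 and 0.75 for *ATG39*, *ATG42* and *ATG22*. This was not particular to them, as 9 of the 29 genes were higher and 7 lower, where 15.3% and 27.3% of all genes were. *ATG34* had the largest such difference of the 29, at 1.08 in DMSO and 0.74 in rapamycin, and its response was not called as different (adjusted p = 0.164 from limma). In rapamycin *ATG39* was higher by 1.76, while *ATG42* and *ATG22*, at 0.06 and 0.17, were not called.

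Among 8 regulators of *ATG* transcription, 3 rose in WT in rapamycin, 2 fell and 3 did not pass the test, shares near the 37.8% and 28.4% of all genes. The GATA activators *GAT1* (YFL021W) and *GLN3* (YER040W) rose by 1.18 and 0.66. *UME6* (YDR207C), which in yeast represses *ATG8* with the deacetylase Rpd3, fell by 0.32 (adjusted p = 0.0012 from limma). *RPH1* (YER169W), a repressor of several *ATG* genes, fell by 0.21 (adjusted p = 0.0078 from limma). In *tup1Δ*, *UME6* had -0.35 (adjusted p = 0.0086 from limma), and *RPH1*, at 0.01, was not called (adjusted p = 0.93 from limma). *RPD3* (YNL330C) rose by 0.13 in WT (adjusted p = 0.042 from limma), a call it kept under 4 of 18 alternatives. The rise of *GAT1* was smaller in *tup1Δ*, at 0.64, a difference of -0.54 (adjusted p = 0.027 from limma), which was called under 17 of 21 alternatives. In DMSO *GAT1* was higher in *tup1Δ* than in WT, by 0.55 (adjusted p = 5.4e-04 from limma). In rapamycin the strains were level, at 13.39 and 13.38.

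Across the 12 arrays, which share strain and treatment groups, the 8 core genes that rose in WT had pairwise Pearson correlations from 0.74 to 0.99. These 8 were grouped by their rise on the same arrays, so high correlations among them were to be had. With *ATG8*, the correlation was highest among the core genes for *ATG2*, at 0.96, which was place 150 among all other genes. It was 0.62 for *ATG14* and -0.74 for *ATG5*. Among the other genes most like *ATG8* across the arrays were *GRS2* (YPR081C), *MPM1* (YJL066C), *SET6* (YPL165C) and *ORT1* (YOR130C), with correlations from 0.98 to 0.99 and log2 fold changes in WT from 1.09 to 1.86. *GRS2* has a close paralog and could share probes with it. These correlations largely follow the treatment groups and are given as a description.

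The 20 genes next to the core genes on the chromosomes are given for context. In WT, 8 of them rose, 6 fell and 6 did not pass the test, with a median log2 fold change of 0.10. These shares are near those of all genes, 37.8% and 28.4%. *GDB1* (YPR184W), next to *ATG13* and encoding the glycogen debranching enzyme, was the one neighbor to rise past a log2 fold change of 1, with 1.29. *ATG9* lies between *RPC53* (YDL150W) and *NOP14* (YDL148C), for a subunit of RNA polymerase III and a ribosome assembly factor, and these had log2 fold changes of -1.86 and -3.11 while *ATG9* had 1.15. Beside *ATG7*, *NMD3* (YHR170W), for an export factor of the large ribosomal subunit, had -2.60. Both neighbors of *ATG5*, YPL150W and *PPT2* (YPL148C), rose, by 0.74 and 0.49. These neighbors were chosen by position and named after their values were seen.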

How the data were processed

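The authors quantified the array images with NimbleScan and normalized them by RMA together with further NimbleGen arrays, and deposited log2 values per gene and array. The sources used here disagree on the labeling step and the SDS concentration of the RNA extraction. Probe signals, detection flags and the ChIP-seq data were not used here. Of 5872 entries, 103 were empty on all arrays and were left out. Symbols came from the RefSeq table of the R64 assembly for 5763 of 5769 genes, and that table gave the order of neighbors. The array's own genome build is not given in the sources used here.

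The deposited log2 values were fitted in R 4.3.3 with limma 3.58.1 (lmFit, eBayes), with a mean per group (4 in all), 8 residual and 2.8 prior degrees of freedom, and Benjamini-Hochberg adjustment over all genes. The fit was tested on simulated data. The number of arrays limits the precision, and 5 of the 10 core genes (*ATG1*, *ATG3*, *ATG8*, *ATG9* and *ATG14*) were among the dimmest 25% of genes. Members, lists and alternatives were chosen with earlier results of these data known. Named were all members, in each other list the 3 largest rises and falls among called genes in WT, any gene called in the strain difference of the response, and the 5 genes most like the member that changed most, of which 1 is not reported here.

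WT arrays with one replicate number come from a divided culture by the design text, and *tup1Δ* arrays were paired likewise. Their deviations from the group means correlated at 0.745, 0.119, 0.531 and 0.535 in WT and 0.064 in *tup1Δ*. Alternatives were quantile normalization, median centering, a shift to the median gene, a filter on dim genes, fewer groups, an intensity trend with a robust prior, a replicate block, a fold threshold, each array left out, and WT replicates 3 and 4 averaged or either WT pair alone. Running them on genes outside the core list was decided after seeing the data.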

Additional observations from a re-analysis of the deposited data

Results flagged for a closer look

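A pair of core genes had 1 array far from the others of its group, with the gap to the nearest array given as a share of the group's range. In WT in rapamycin, *ATG1* was high in replicate 2, with a share of 0.925, and *ATG5* was high in replicate 1, with 0.857. *ATG12*, outside the core list, was high in replicate 1 of the same group, with 0.856. Of 64 groups of 4 arrays examined, 3 were picked out this way, where chance gives 3.2. Without these arrays *ATG1* and *ATG5* kept their calls in WT.

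The rapamycin response differed between *tup1Δ* and WT, as tested by limma, in 4 listed genes outside the core list. Over all genes, 3.48% had a larger and 2.29% a smaller response in *tup1Δ*. The difference (*tup1Δ* minus WT, log2) was 0.74 for *ATG39*, -0.58 for *ATG22*, -0.84 for *ATG42* and -0.54 for *GAT1*. *ATG39*, *ATG22* and *ATG42* were called under every alternative run for them, none of which set a fold threshold, and *GAT1* under 17 of 21.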

How the results depend on the processing

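For the log2 fold changes of the 10 core genes, 805 alternative values were computed. Of these, 757 left the call unchanged, 20 lost it, 28 gained it and 0 reversed a called value. A value not called in either fit counts as unchanged even where its sign differed. An example is *ATG8* in *tup1Δ* against WT in DMSO, at -0.18 with all WT arrays and 0.09 with replicates 1 and 2. In WT, rapamycin gave 8 rises and 1 fall; without the dimmest 25% of genes, which removes 5 of the 10, 4 rose, and at a log2 fold change of at least 1, 3 rose and 0 fell. In *tup1Δ*, 9 rises became 4 and 3 under the same settings, and 1 gene (*ATG5*) fell with only the groups compared, with a replicate block or with only WT replicates 3 and 4. The replicate block changed no other call of a core gene. In DMSO, 4 genes were lower in *tup1Δ* and 0 higher; 2 were lower with the shift to the median gene or without dim genes, 0 at the fold threshold, 6 with only WT replicates 3 and 4, and 1 (*ATG1*) was higher with the shift or with only WT replicates 3 and 4. In rapamycin, 1 was lower; 0 were lower with centered arrays, the shift, only the groups compared or the fold threshold, and 3 with only WT replicates 3 and 4, while 1 was higher with centered arrays or only WT replicates 3 and 4 and 2 with the shift. For the strain difference of the response, 1 was higher with only WT replicates 1 and 2, and 1 higher and 1 lower with only replicates 3 and 4. With each array left out, the rises numbered 8 to 9 in WT and 8 to 9 in *tup1Δ*, and *tup1Δ* against WT gave 1 to 5 lower and 0 to 1 higher in DMSO, and 0 to 1 lower and 0 to 1 higher in rapamycin. The cause of these changes was not tested, and fits with either WT pair alone leave out the spread between the pairs. Averaging WT replicates 3 and 4 changed no call of a core gene.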
